A study of Mus musculus with 12 samples.

Results

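RNA of 4 control kidneys was taken out of a series of 12 mouse kidneys, and it is described here across all genes without reference to the other 8, which had undergone ischemia. The kidneys came from male C57BL/6J mice with no transgene or deletion given in the labels. The control kidneys were taken at nephrectomy by the study's methods. The treatment note of the labels is the same for every sample, controls included, and gives 20 min of ischemia followed by 24 h. Nothing in the sources used here gives the hour of day at which a kidney was taken, and each library was made from 1 kidney. Whether a library holds cortex and medulla in the same proportion as the others is likewise not stated. The members were chosen by their title alone.

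The kidney filters blood in the glomerulus, where podocytes and a fenestrated endothelium form the barrier, and the filtrate then runs along a tubule whose segments each carry their own set of transporters. The proximal tubule reclaims most of the sodium, phosphate, glucose, amino acids and filtered protein, makes glucose, and lives on mitochondrial oxidation. The thick ascending limb and the distal convoluted tubule reabsorb salt without water, and the connecting tubule and collecting duct set the final sodium, potassium, acid and water content of the urine.

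The table held 23420 genes, of which 13020 had at least 1 count in a control kidney. The totals were 20364386, 39155807, 26791535 and 38977644 counts in controls 1 to 4, so that control 1 was the shallowest. Between 10782 and 11512 genes had a count in a given kidney. Levels are given as CPM, the count scaled to the counted total of the library, which serves to compare 1 gene between kidneys. TPM, which also divides by exon length, sets the levels of different genes against each other, whereas an order or a share in CPM is one of reads. A mean of at least 1 CPM over the 4 kidneys was reached by 10248 genes, at least 100 CPM by 1954 and at least 1000 CPM by 135. A total of 3 counts, taken as the floor, corresponded to between 0.0766 and 0.147 CPM, and it covers counting error only. The pairs of kidneys had Pearson coefficients between 0.948 and 0.966 across genes on log2(CPM + 1), which describes the libraries since genes are not replicates. The median absolute log2 ratio of a gene between 2 kidneys lay between 0.31 and 0.38. By the labels all 4 are separate samples. The chi-square per degree of freedom between a pair, set against counting error alone, was between 54.1 and 83.5, which shows only that no pair is 1 library listed under both names. Because there is 1 group, no test between groups was made.

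The label of the tissue was checked first. The Y-linked gene Ddx3y stood at 189.3, 199.0, 198.2 and 168.8 CPM, and Xist, the RNA of the inactive X chromosome, had no count in any kidney, as in males. The defining genes of the nephron were present, with the sodium-phosphate cotransporter Slc34a1 at 4866 ± 309 CPM (SD, n = 4), the Na-K-2Cl cotransporter Slc12a1 at 1495 ± 51.7 CPM and the thiazide-sensitive cotransporter Slc12a3 at 953.6 ± 145 CPM. Renin (Ren1), the hormone of the juxtaglomerular cells and a defining kidney transcript, was absent, with 0 counts in all 4 kidneys.

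Ren1 was not alone, and this bears on every level given below. Further genes known as abundant in mouse kidney, named here after their values were seen, had few counts or none. Ass1, an enzyme of arginine synthesis in the proximal tubule, had 0 counts in each kidney. B2m, the light chain of the class I histocompatibility molecules, had 7, 0, 31 and 0 counts. Cox6c, a subunit of cytochrome oxidase, had 89, 52, 64 and 0 counts. Other genes known as abundant had counts in each kidney but did not rank high by CPM. Kap, the kidney androgen-regulated protein, had 41.28 ± 7.0 CPM (rank 3507). Fxyd2, the small regulatory subunit of the sodium pump, had 39.59 ± 7.59 CPM (rank 3589). The metallothionein Mt1 had 23.92 CPM and Tpt1 22.7 CPM on average. Uromodulin (Umod), a urinary protein, had 113.5 ± 5.58 CPM (rank 1782). Umod was similar in the 4 kidneys, at 121.3, 108.8, 110.3 and 113.7 CPM.

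The same unevenness ran through families whose subunits are made together. The 85 cytosolic ribosomal protein genes in the table ranged from 0 to 2046 CPM with a median of 76.0. Of these, 6 had no count, among them Rpl26, Rpl30, Rpl34 and Rps27, where 44.4% of all genes in the table had none. Per length, Rpl19 stood at 6950 TPM and Rpl11 at 4020 TPM, against a median of 253 TPM over the family. Between kidneys the median coefficient of variation (CV, the SD divided by the mean) was 13.2% over the 77 members with a mean of at least 1 CPM. Of the 77, 7 had a CV over 50%, against 23.6% of all genes with such a mean. The 84 nuclear genes of the respiratory chain, a list that includes ATP synthase, ranged from 0 to 3374 CPM, the highest being Atp5b. Of these, 11 had no count, a smaller share than the 44.4% of all genes in the table. Among them were the complex I subunits Ndufb4, Ndufc1 and Ndufs5. Some of the members at 0, such as Cox6a2, Cox7a1 and Cox8b, are the isoforms of muscle. No symbol in the table matched the names, beginning with mt-, of the mitochondrially encoded protein genes.

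Absence also went with length. Of 20354 protein-coding genes with an annotated length, 12631 had a count in some control kidney. These genes were split by exon length into 10 bins of like size. The share without any count was 73.5% in the shortest bin (174 to 1072 bases), 39.1% in bin 5 (2437 to 2915 bases) and 16.6% in the longest (6705 to 123179 bases). The median exon length was 2134 bases among the protein-coding genes at 0 and 3580 bases among the genes with a mean of at least 1 CPM. Some genes with near-identical copies were also at 0, among them the glycolytic enzyme Eno1, the alpha globins Hba-a1 and Hba-a2, and the proton pump subunit Atp6v0c, and how shared reads were counted is not stated. The part that length, copies or reference annotation had in these zeros was not tested. A low or zero value below is therefore given as a count in this table.

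**Figure D1:**
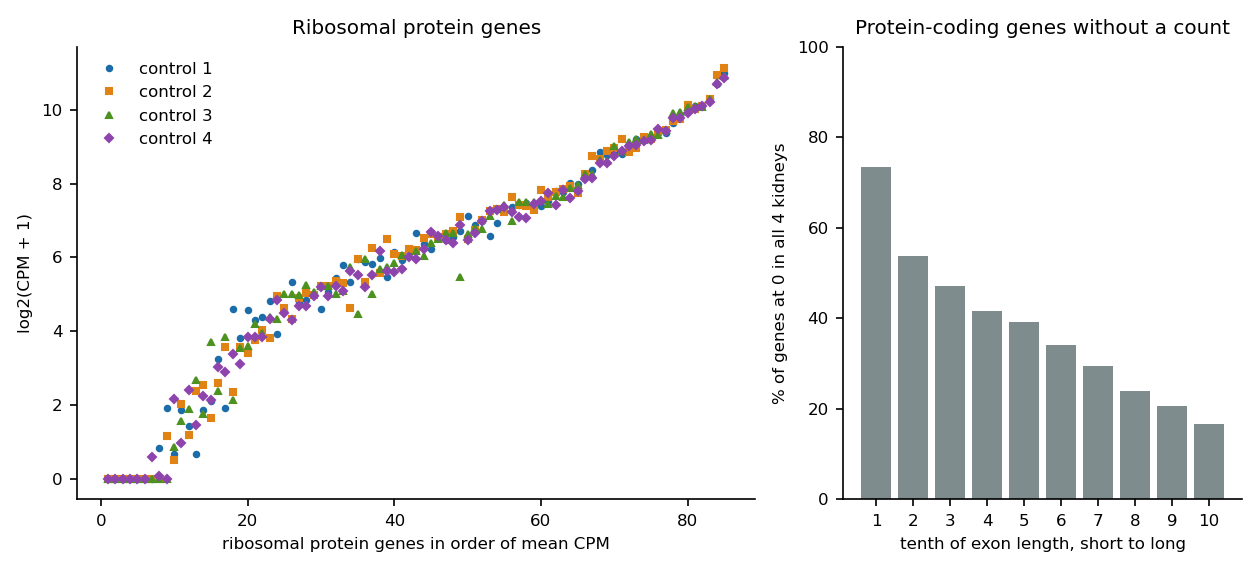
The left panel plots log2(CPM + 1) of each of the 85 ribosomal protein genes in the 4 control kidneys, with the genes in order of mean CPM. The 4 symbols of a gene lie close together over most of the range while the genes run from 0 to 2046 CPM. The right panel gives, for each of 10 bins of protein-coding genes by exon length, the percentage at 0 in all 4 kidneys, which goes from 73.5% in the shortest to 16.6% in the longest.

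Which RNAs made up the kidney was answered first by order. Counts were concentrated in few genes, since the 25 highest genes held 15.1% ± 0.25 of the counts and between 378 and 409 genes held 50% of them, depending on the kidney. The genes at 1000 CPM or more, 135 in number, held 32.5%, and the 4005 genes between 1 and 10 CPM held 1.65%. The gene with the most reads was Eif4g2, a translation factor of the eIF4G family, with 20730, 18430, 23950 and 18950 CPM. The ribosomal RNA precursor Rn45s followed with 13760, 15210, 15670 and 14820 CPM. Beta-actin (Actb) had 15290, 15090, 14150 and 13580 CPM, and its values overlapped those of Rn45s.

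Below these stood proximal tubule and housekeeping genes together. Gpx3, the secreted glutathione peroxidase that the proximal tubule supplies to plasma, had 7294, 8532, 6379 and 7073 CPM. Fth1, the heavy chain of ferritin, had 6117, 6616, 6160 and 6982 CPM. Of the 24 neighbouring pairs among the 25 highest genes only 3 had values that did not overlap, all of them above Fth1 and among them Eif4g2 above Rn45s, so that the order further down lies within the spread between kidneys.

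Further members of the 25 fell into a few groups. Phosphate uptake was represented by Slc34a1 (4866 ± 309 CPM). Oxidative metabolism contributed Glud1, glutamate dehydrogenase (3907 ± 592 CPM), Mdh1, cytosolic malate dehydrogenase (3838 ± 351 CPM), and Atp5b, the beta subunit of ATP synthase (3374 ± 144 CPM). Cyp4b1, a monooxygenase that is induced by androgen in mouse kidney, had 3799 ± 476 CPM. Translation and RNA handling contributed Eif5a, Pabpc1, Ybx1, Pcbp2 and Son, and protein folding and turnover Hspa8, Ppia and Huwe1. Others were the large scaffold gene Ahnak, the G protein gene Gnas, Ivns1abp and Maf, a transcription factor with 3064 ± 431 CPM.

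**Figure D2:**
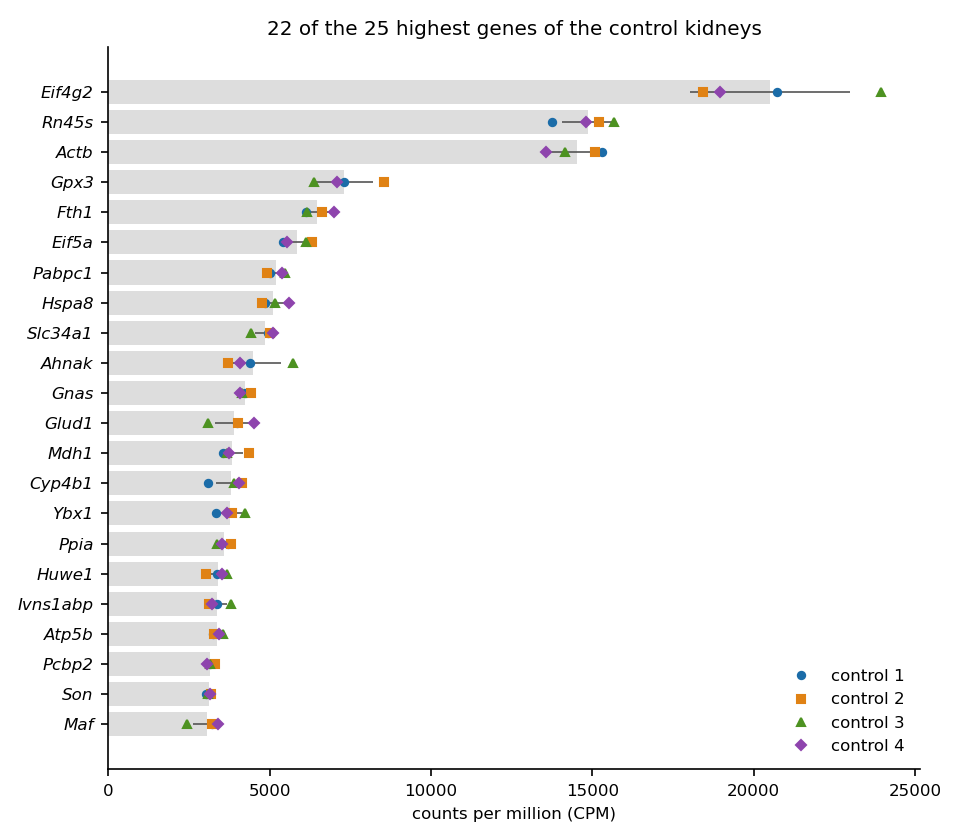
Of the 25 genes with the highest mean CPM, 22 are plotted with a bar for the mean of the 4 control kidneys, an error bar for the SD and a symbol for each kidney on a linear axis that starts at 0. Eif4g2 stands apart at 20510 CPM, and from Fth1 downwards the symbols of neighbouring genes overlap.

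Dividing by exon length changed the order in part, and 16 of the 25 highest genes by CPM were also among the 25 highest by TPM. Actb was then first with 23840 TPM. Gpx3 (14460 TPM), Fth1 (13080 TPM) and Atp5g3, a membrane subunit of ATP synthase (12110 TPM), were also ahead of Eif4g2. Eif4g2, whose exons cover 7995 bases, moved to the sixth place with 8094 TPM. Ahnak, with 18339 bases of exon, moved from rank 12 by CPM to rank 191 by TPM. Rn45s has no annotated length and takes no place in the TPM order.

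The share of counts per nephron segment was measured with short lists of marker genes, so that a share describes the list and not the number of cells. In bulk tissue, fewer cells of a type and less RNA per cell cannot be told apart. The 10 proximal tubule genes held 1.87%, 1.75%, 1.77% and 1.84% of the counts in controls 1 to 4 (1.81% ± 0.0541). Without the 25 highest genes of the kidney, which include Slc34a1, the share was 0.395%. Per length, Slc34a1 stood at 3810 TPM and Hnf4a, the transcription factor of proximal tubule identity, at 1060 TPM. Fatty acid uptake by Slc27a2 stood at 400 TPM, and inositol oxygenase Miox and the dicarboxylate transporter Slc13a3 at 339 TPM each. The endocytic receptor megalin (Lrp2) had 758.1, 707.1, 809.9 and 749.9 CPM, and its partner cubilin (Cubn) had 62.36, 41.53, 48.04 and 43.23 CPM. On the length scale megalin stood at 144 TPM and cubilin at 13.7 TPM.

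The 3 parts of the proximal tubule were each represented. The early S1 genes held 0.125% ± 0.01, or 0.078% per length, with the glucose transporter Slc5a2 at 362 TPM, the basolateral bicarbonate transporter Slc4a4 at 239 TPM, the monocarboxylate transporter Slc5a12 at 118 TPM and the neutral amino acid transporter Slc6a19 at 61.1 TPM. The organic anion transporters of S2, Slc22a6 and Slc22a8, stood at 575 TPM and 83.4 TPM. Slc22a6 had a CV of 17.3%, with 600.6, 715.0, 691.4 and 900.0 CPM. The S3 share of 0.0645%, or 0.0311% per length, came mostly from Atp11a, a lipid flippase that is widely expressed. Per length, Atp11a stood at 236 TPM, and the narrower S3 markers Slc7a13 and Cyp7b1 at 14.6 TPM and 13.9 TPM.

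The lists of later segments differ in size from the proximal tubule list, and their shares are given in turn. The 8 thick ascending limb genes held 0.199% ± 0.00884, or 0.234% without the 25 highest genes of the kidney. Slc12a1 was the steadiest of them, with 1536, 1543, 1460 and 1442 CPM, and stood at 955 TPM. Umod stood at 136 TPM, Egf, the precursor of epidermal growth factor, at 134 TPM, and the potassium channel Kcnj1 at 33.1 TPM. Of the claudins, Cldn10 stood at 93.6 TPM and Cldn19 at 19.0 TPM, whereas Cldn16 had counts only in control 2 (1.277 CPM). Cldn10 was higher in controls 1 and 2 (101.2 and 86.32 CPM) than in controls 3 and 4 (60.21 and 60.29 CPM).

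In the distal convoluted tubule the 4 markers held 0.10% ± 0.0151, or 0.0664% per length, nearly all of it Slc12a3, with 900.7, 1105, 776.9 and 1032 CPM. The calcium buffer parvalbumin (Pvalb), a textbook marker of the early segment, had 2.03 ± 1.44 CPM. The connecting tubule held 0.119% ± 0.0187, or 0.0658% per length, from calbindin (Calb1), the calcium-binding protein, at 465 TPM and the sodium-calcium exchanger Slc8a1 at 90.0 TPM. Calb1 was lowest in control 3 with 471.9 CPM against 614.1 to 706.1 CPM in the others, and all 4 distal convoluted tubule markers were lowest in the same kidney, where 27.8% of all genes were lowest. In all, 3 of the 5 connecting tubule genes were lowest in control 3. The calcium channel Trpv5 went the other way, highest in control 3 with 15.79 CPM against 5.30 to 6.95 CPM in the others. Per length, Trpv5 stood at 8.48 TPM and the small calbindin S100g at 13.4 TPM.

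Collecting duct markers held small shares. Principal cell genes held 0.0171% ± 0.00234, or 0.0273% per length, led per length by the water channel Aqp3 (148 TPM), the sodium channel subunit Scnn1b (42.5 TPM) and the vasopressin-regulated water channel Aqp2 (28.7 TPM). The vasopressin receptor Avpr2 had 9.92, 25.33, 4.29 and 15.70 CPM, and Hsd11b2, the enzyme that shields the mineralocorticoid receptor from glucocorticoid, had 10.66, 30.39, 8.25 and 16.01 CPM. For both genes control 2 was highest and control 3 lowest, whereas 4 of the 7 principal cell genes with a mean of at least 1 CPM were lowest in control 2, as were 24.0% of all genes. These were Aqp2 (17.73, 8.33, 12.95 and 12.55 CPM), Aqp3 (83.92, 69.13, 71.93 and 107.1 CPM), Scnn1b (39.19, 29.17, 31.73 and 33.53 CPM) and Scnn1g (11.79, 5.85, 9.03 and 7.42 CPM). Fxyd4 had no count.

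In the intercalated cell list control 1 stood apart. Its 8 genes held 0.0481% of the counts in control 1 and between 0.0286% and 0.0306% in the others. Foxi1, the transcription factor that specifies intercalated cells, had 216.1, 120.0, 100.3 and 114.0 CPM. Atp6v1b1, the proton pump subunit of these cells, had 84.61, 52.02, 47.70 and 36.59 CPM. In all, 5 of the 8 genes were highest in control 1, where 30.2% of all genes were highest, whereas the subunit Atp6v1g3 was lowest there (6.14 CPM) and the bicarbonate exchanger pendrin (Slc26a4) was highest in control 2 (26.33 CPM). The ubiquitous pump subunit Atp6v1a did not share the excess, with 162.6 CPM in control 1 and 169.9 to 179.5 CPM in the others. Control 1 also had the highest share in the thin limb and inner medulla list, 0.0357% against 0.0233% to 0.0292%, and all 3 genes of that list were highest in it, although the urea transporter Slc14a2 hardly differed between controls 1 and 2 (46.80 and 46.76 CPM), unlike the small heat shock protein Cryab (254.7 CPM against 162.0 to 199.6). The proportion of cortex to medulla in each library was not tested.

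**Figure D3:**
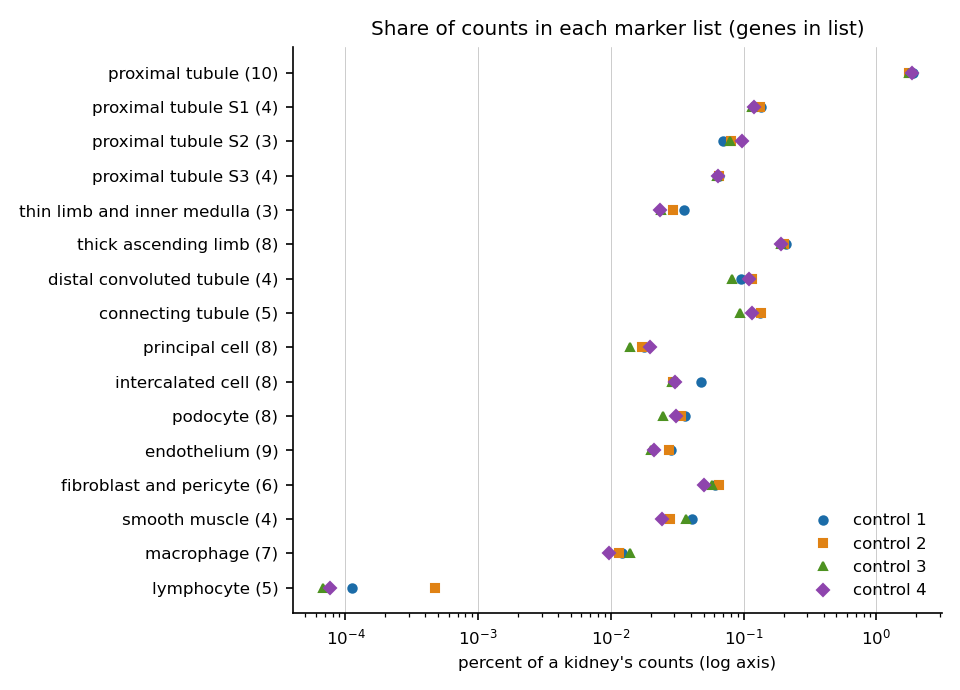
Each symbol is the percentage of the counts of 1 control kidney held by a marker list, on a log axis, with the number of genes in the list in brackets. The proximal tubule list lies near 1.81%, the intercalated cell list at 0.0481% in control 1 and near 0.03% in the others, and the lymphocyte list below 0.0005% in every kidney.

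Glomerular, vascular and interstitial genes were present at low levels. The 8 podocyte genes held 0.0313% ± 0.00505, with Podxl, the sialomucin of the foot processes, at 40.6 TPM and Wt1 at 39.2 TPM. Nphs1, which encodes nephrin of the slit diaphragm, had 1.02 ± 0.722 CPM and no count in control 1. Endothelial genes held 0.0243% ± 0.00418, in which the growth factor receptor Kdr was close to constant at 40.22, 41.96, 39.79 and 39.97 CPM while the pan-endothelial marker Pecam1 had 0.54, 0.587, 0 and 2.41 CPM. Collagen genes led the fibroblast list, with Col1a1 at 193 TPM. Smooth muscle actin (Acta2) had 277.1, 159.6, 241.0 and 131.8 CPM.

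Markers of neutrophils, adrenal cortex, fat and blood were absent or low. The neutrophil list (S100a8, S100a9, Cxcr2) and the 5 genes of the adrenal cortex, which lies next to the kidney, had no count. In the fat list 5 of 6 genes had no count and Car3, which other tissues express too, had 5.52 ± 1.32 CPM. The 3 blood genes in the table had no count except Alas2, the haem synthesis enzyme of red cells, at 2.40 ± 1.99 CPM. Among macrophage genes Cd74 had 55.35 ± 14.4 CPM and Csf1r 51.35 ± 7.81 CPM, but Cd68, C1qa and C1qb were each under 1 CPM and C1qc had no count. As many kidney genes were themselves at 0 in this table, an absent marker gives no upper limit on the cells.

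Genes of tubular injury were checked because the treatment note did not set the controls apart. Havcr1, which encodes KIM-1, had 0.00639 CPM on average and a count in 1 kidney only, and Lcn2, which encodes NGAL, had 0.00641 CPM, both under the floor. Timp1 and Cdkn1a had no count. The highest members per length were clusterin (Clu, 10.9 TPM), the fibrinogen chain Fga (7.80 TPM) and Sox9 (2.76 TPM), the last with 9.14 CPM in control 2 and no count in control 3. The whole list of 11 genes came to 29.32, 27.74, 16.98 and 13.60 CPM. Of the immediate early genes, Dusp1 stood at 242.4 ± 56.9 CPM and Fos at 2.40 ± 2.27 CPM.

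Transport and energy genes were then summed by function. The 365 solute carrier genes in the table held 2.81% ± 0.152 of the counts. Of these, 82 were at 0, against 44.4% of all genes in the table, and 46 had at least 100 CPM, against 1954 of all 23420 genes. Besides Slc34a1 and Slc12a1, the mitochondrial carriers of adenine nucleotides and phosphate, Slc25a5 and Slc25a3, stood at 2780 TPM and 1720 TPM, the creatine transporter Slc6a8 at 903 TPM and the taurine transporter Slc6a6 at 617 TPM. The beta subunit of the sodium pump, Atp1b1, stood at 1100 TPM. The vacuolar proton pump held 0.222% ± 0.00495 over 22 genes, or 0.408% per length.

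Among the genes of gluconeogenesis, each named gene was well above the floor. Phosphoenolpyruvate carboxykinase (Pck1), which commits to glucose synthesis, had 1531, 1362, 1588 and 2084 CPM. Pyruvate carboxylase (Pcx) had 985.8, 1084, 1000 and 1289 CPM, and G6pc, which releases glucose, stood at 216 TPM. Control 4 was highest in 4 of the 7 genes of gluconeogenesis and in 22.4% of all genes, and the fructose bisphosphatase Fbp1 was highest in control 3 (87.71 CPM). The 15 glycolytic genes held 0.533% ± 0.0376, or 0.927% per length. Of these, Gapdh (4680 TPM) and Aldoa (1460 TPM) were highest per length, and the hexokinase Hk1 stood at 96.0 TPM, while the inducible hexokinase Hk2 was under the floor.

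The summed shares of mitochondrial functions were similar in the 4 kidneys. The 18 genes of the citric acid cycle held 0.997% ± 0.0188, all were above 1 CPM, and their median CV was 7.47%. Ogdh, a subunit of the oxoglutarate dehydrogenase, had 2269, 2266, 2159 and 2089 CPM, and Sdha 1392 ± 63.3 CPM. The other succinate dehydrogenase subunits were uneven, with 397 TPM for Sdhb, 44.9 TPM for Sdhd and 5.24 TPM for Sdhc, against 1510 TPM for Sdha. The respiratory chain list, which includes ATP synthase, held 1.32% ± 0.0416, or 3.17% per length. In it the ATP synthase genes Atp5b and Atp5g3 had 3374 and 2782 of 13190 CPM. The single genes of the list had a median CV of 22.8%, against 25.1% over all genes. Fatty acid oxidation held 0.171% ± 0.00737, or 0.378% per length, with Etfa, which passes electrons from acyl-CoA dehydrogenases, at 718.2 ± 29.2 CPM.

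Genes of defence and detoxification were summed likewise. The 11 antioxidant genes held 1.07% ± 0.110, most of it Gpx3. Their share was 2.06% per length and 0.404% without the 25 highest genes of the kidney. Catalase (Cat) had 502.9 ± 37.0 CPM. Of 95 cytochrome P450 genes, 53 had no count, against 44.4% of all genes in the table, and Cyp4b1 made up 3799 of the 4897 CPM of the family. Of 59 conjugation genes, 27 had no count, close to that share, and Gstm1 led with 2070 TPM. In amino acid catabolism, Aass, which degrades lysine, had 197.9, 180.5, 201.2 and 206.5 CPM.

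Control 1 also stood apart in the androgen-responsive genes. They held 0.373% of the counts in control 1 and 0.518% to 0.544% in the others. Cyp4b1 had 3100 CPM in control 1 against 3905 to 4148 CPM, and Odc1, the polyamine-forming ornithine decarboxylase, had 551.2, 993.3, 1161 and 1291 CPM. The anion transporter Slco1a1 was also lowest in control 1 (14.73 CPM against 23.59 to 32.71). Cyp4b1 and Odc1 made up most of the list, with 3799 and 999.3 of its 4896 CPM on average. In all, 5 of the 8 members with a mean of at least 1 CPM were lowest in that kidney, where 25.1% of all genes were lowest. Slc7a13 was highest there (12.57 CPM against 7.54 to 11.26), and Cyp2j13 and Cyp4a12a were lowest in control 2. Kap was not set apart in the same way, with 37.17 CPM in control 1 and 37.53 to 51.73 CPM in the others. Animals were not described individually in the sources, and the cause was not tested.

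Sequence was available for the promoters of many of these genes, and it is shown for genes of the proximal tubule lists. RefSeq promoters of 300 bases (build GRCm38.p6, which has the coordinates of mm10), matched by symbol, were found for 16374 of the 23420 genes and for 16 of the 21 genes in the 4 proximal tubule lists. The letters GTTAAT, the core of the site bound by HNF1 factors, were searched on both strands. They occurred in 5 of the 16 proximal tubule genes (31.2%), against 7.27% of all genes of the table with a promoter and 7.04% of the 71 genes with a promoter among the 100 highest by CPM. The proximal tubule lists were searched after the values were seen, and a match is not a measured site. The letters CAAAGTC, the core of a site of HNF4A, occurred in 2 of the 16, against 4.84% of all. The TATA box core TATAAA occurred in 21.1% of the 71 genes among the 100 highest with a promoter, against 14.3% of all genes and 8.81% of the genes with a mean of at least 1 CPM. The 5 proximal tubule promoters with GTTAAT or its reverse complement ATTAAC are printed here on the plus strand, from 150 to 31 bases before the start that RefSeq gives the gene, with the matches in capitals.
Slc34a1: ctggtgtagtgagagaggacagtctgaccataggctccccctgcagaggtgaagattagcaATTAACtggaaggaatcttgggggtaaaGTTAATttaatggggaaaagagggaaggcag
Hnf4a: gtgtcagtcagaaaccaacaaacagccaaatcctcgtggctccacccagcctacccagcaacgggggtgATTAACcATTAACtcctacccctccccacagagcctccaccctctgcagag
Miox: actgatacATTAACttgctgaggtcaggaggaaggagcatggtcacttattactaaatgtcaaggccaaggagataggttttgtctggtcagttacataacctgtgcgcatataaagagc
Slc22a6: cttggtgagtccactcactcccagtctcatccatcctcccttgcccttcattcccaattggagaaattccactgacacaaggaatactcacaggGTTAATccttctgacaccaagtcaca
Slc22a8: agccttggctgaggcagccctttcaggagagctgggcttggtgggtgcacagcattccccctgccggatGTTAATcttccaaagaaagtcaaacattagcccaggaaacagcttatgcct
These stretches lie at chr13:55399498-55399617 (Slc34a1, mean 4866 CPM), chr2:163547005-163547124 (Hnf4a, 1475 CPM), chr15:89334323-89334442 (Miox, 121.6 CPM), chr19:8617846-8617965 (Slc22a6, 726.7 CPM) and chr19:8593032-8593151 (Slc22a8, 92.05 CPM), and all 5 genes are on the plus strand. By the GENCODE annotation, in which some of these genes start further upstream, the stretch lies before the gene only for Slc22a6, spans the start of Miox, and lies inside the annotated span of Slc34a1, Hnf4a and Slc22a8. Slc34a1 and Hnf4a each hold 2 matches, those of Hnf4a next to each other in the same orientation and those of Slc34a1 in opposite orientations.

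The spread between the 4 control libraries was described by the CV of each gene. With 1 library per kidney, differences between animals cannot be told apart from those of dissection or library preparation. Over the 10248 genes with a mean of at least 1 CPM the median CV was 25.1%, with 5th and 95th percentiles of 6.28% and 98.0%. Counting error alone would have given a median of 4.42%. A CV at or under that of Poisson counting was seen in 45 genes. A CV over 50% was found in 2419 genes (23.6%), and in 141 of the 6243 genes with a mean of at least 10 CPM (2.26%).

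The spread depended on level. The median CV was 55.8% between 1 and 10 CPM, 20.5% between 10 and 100 CPM, 10.6% between 100 and 1000 CPM and 7.70% above. Even at a mean of 10000 counts or more, where counting error is under 1%, the median CV was 8.83%. At low counts the excess was large too, since genes with a mean of 30 to 100 counts had a median CV of 76.8% where Poisson counting gave 14.0%.

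**Figure D4:**
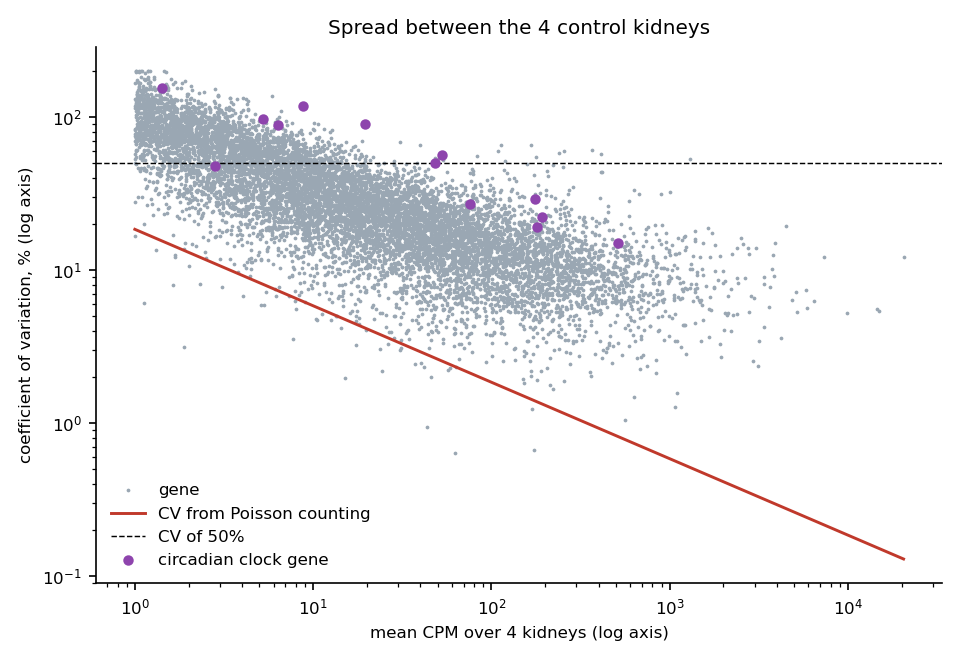
Each grey point is a gene with a mean of at least 1 CPM, plotted by its mean CPM and its CV over the 4 control kidneys on log axes, with the CV of Poisson counting as a line and a CV of 50% as a dashed line. The cloud lies above the Poisson line for all but 45 of 10248 genes. The clock gene Arntl, at 19.65 CPM and a CV of 90.5%, lies at the upper edge of the cloud.

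Some genes were missing from the libraries of single kidneys. Of the 10917 genes with a mean of at least 20 counts, 1492 (13.7%) had 3 counts or fewer in at least 1 kidney, where Poisson counting gave 0.497 such genes. In 1018 of them this was so in 1 kidney, in 410 in 2 and in 64 in 3. Control 1, which had the fewest counts, was at the floor for 782 genes, and the others for 347 to 539. Zfp787, a zinc finger gene, had 228, 466, 2 and 466 counts. Fam160a1 had 0, 333, 324 and 455 counts. In both genes 3 kidneys had similar CPM and the remaining kidney lay at the floor.

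The steadiest genes with a mean of at least 10 CPM were Wsb2, a substrate adaptor of a ubiquitin ligase, with 62.90, 63.08, 62.82 and 62.16 CPM (CV 0.639%), and Cdc73, a subunit of the PAF1 elongation complex, with 173.7, 171.4, 173.3 and 174.0 CPM (CV 0.673%). Both lay under the CV of Poisson counting, 2.34% and 1.41%. Trappc8, Atp11a, Surf4, Ythdf3, Hipk1 and Rpl32 completed the 8 lowest, with CVs of 0.940% to 1.57%. Of these, Trappc8 (0.940% against 2.80%) and Surf4 (1.25% against 1.43%) also lay under the CV of Poisson counting. The genes usually taken as references in PCR differed among themselves. Rpl32 had a CV of 1.57%, Actb 5.56%, Ppia 5.74%, Ywhaz 6.30%, Gapdh 12.9%, Hprt 16.3% and Tbp 20.5%. Gusb, at 0.976 CPM, and B2m, at 0.375 CPM, were both under 1 CPM.

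The 12 most variable genes with a mean of at least 10 CPM lay close to that limit, between 10.06 and 12.71 CPM, with the exception of Arntl at 19.65 CPM. Rps26, a ribosomal protein gene, had 23.42, 4.11, 3.36 and 9.36 CPM. The kinase gene Mapk7 had 6.48, 20.46, 0.933 and 12.39 CPM, and Id1, an inhibitor of differentiation factors, had 6.92, 8.30, 4.82 and 21.58 CPM. Chic1, Myg1, Slc35f6, Ncam1, Hic1, Nkain1, Limk1, Hist1h2af and Arntl were the other 9 of the 12, with CVs between 69.9% and 90.5%.

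With a mean of at least 100 CPM, the 6 most variable genes were 3 histone genes, Ndrg1, Pim3 and Hspa1b. Ndrg1, a gene known to respond to hypoxia and stress, had 681.2, 376.4, 210.7 and 202.7 CPM. Pim3, a serine kinase gene, had 99.88, 157.6, 18.89 and 158.1 CPM. Hspa1b, an inducible heat shock protein gene, had 381.3, 300.1, 50.99 and 230.8 CPM, and its near-identical copy Hspa1a, with which it can share reads, had 276.3, 214.5, 46.81 and 170.9 CPM. In Pim3 and both heat shock genes control 3 was far lowest. The other heat shock genes did not share this, as Hsph1 had 160.4, 119.5, 156.2 and 160.4 CPM and Hspd1 926.2, 848.8, 983.9 and 884.0 CPM.

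Replication-dependent histones, whose mRNAs mostly end in a stem-loop in place of a poly(A) tail, were then gathered as a family, a list made after their values were seen. Of 67 genes, 49 had a mean of at least 1 CPM and 33 of these a CV over 50%, against 23.6% of all genes. With a mean of at least 10 CPM it was 8 of 21, against 2.26% of all genes. The sum of the family was 1443, 2269, 553.4 and 1963 CPM. In 30 of the 49 genes control 2 was highest and in 33 control 3 was lowest, whereas over all genes 23.8% were highest in control 2 and 27.8% lowest in control 3. Hist1h2bc had 216.2, 391.5, 53.60 and 359.7 CPM, and Hist1h4c had 114.7, 272.6, 37.33 and 244.7 CPM. The histone genes are near-identical copies in part and are not independent of each other. How far the selection of poly(A) RNA entered into this was not tested.

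The circadian clock list held many variable genes. In this clock the activators Arntl (BMAL1), Clock and Npas2 drive the Per and Cry repressors, the receptors Nr1d1 and Nr1d2 (REV-ERB) and the output factors Dbp, Tef and Hlf, and the products of Nr1d1 and Nr1d2 repress Arntl, so that activators and outputs peak at opposite times of day. Of the 13 clock genes with a mean of at least 1 CPM, 7 had a CV over 50%, against 23.6% of all genes, and among the 8 with at least 10 CPM it was 3, against 2.26% of all genes. These 3 were Arntl, Per1 and Cry2, the last just past the threshold.

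The kidneys at the extremes were opposite in Arntl and in Dbp and Cry2. Arntl had 43.31, 15.73, 19.22 and 0.334 CPM. Dbp had 0, 3.12, 8.51 and 23.48 CPM, which are 0, 122, 228 and 915 counts. Cry2 had 21.12, 36.01, 61.10 and 74.61 CPM. Control 1 was thus highest in Arntl and lowest in Dbp and Cry2, and control 4 the reverse.

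The more abundant clock genes differed less between the kidneys. Tef had 140.6, 186.3, 193.0 and 245.3 CPM. Nr1d1 had 432.7, 520.7, 481.0 and 615.2 CPM. Clock had 89.57, 77.54, 90.51 and 46.18 CPM. Of the 13 genes 8 were lowest in control 1 and 8 highest in control 4, whereas over all genes 25.1% were lowest in control 1 and 22.4% highest in control 4. Per1 departed from this with 63.20, 23.34, 34.38 and 89.80 CPM, as control 1 was second highest. With any 1 kidney left out, between 6 and 8 clock genes had a CV over 50%. The hours at which the kidneys were removed were not given, and whether they differed was not tested.

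**Figure D5:**
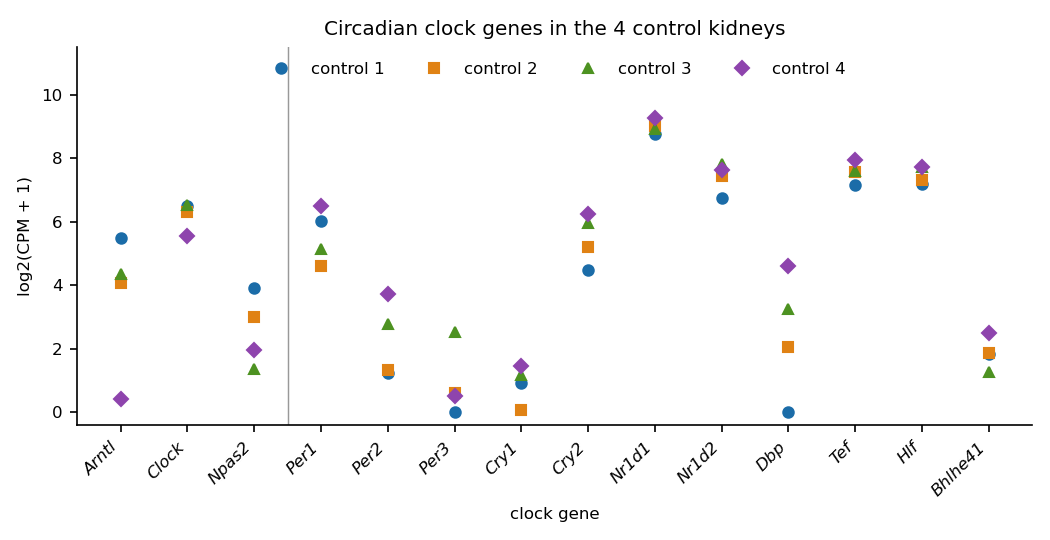
log2(CPM + 1) of 14 clock genes is plotted for the 4 control kidneys, with the activators to the left of the vertical line and the repressors and output genes to the right. Arntl is lowest in control 4 (0.334 CPM) and highest in control 1 (43.31 CPM), and Dbp the reverse, from 0 in control 1 to 23.48 CPM in control 4.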

How the data were processed

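RNA of 4 control kidneys was measured with TruSeq stranded mRNA libraries sequenced as single reads. The authors used STAR for alignment to mm10 and HTSeq for counting, and the deposited values are raw counts per gene, not normalized. Versions, annotation and strand setting are not given in the sources used here. From the counts, CPM was computed on the counted total of each kidney (20364386 to 39155807), and TPM with union exon lengths of the GENCODE vM21 annotation, which covered 23006 of 23420 genes and 98.1% of the counts. The CV was the SD over the mean of CPM (n = 4) among genes with a mean of at least 1 CPM. Per kidney, 3 counts were taken as the floor. The members, gene lists and the rule for named genes were chosen with earlier results of these data known: the 25 highest genes by CPM, the 10 highest by TPM, the 12 highest and 8 lowest CVs at 10 CPM or more, the 6 highest CVs at 100 CPM or more, list members, and the 3 genes with the highest mean count that were at the floor in a kidney. Histone, heat shock and split clock lists were added after the values were seen. Since there is 1 group, no test between groups was run, and single kidneys that stood apart were marked by the gap rule of Dixon, and the ischemic kidneys entered no value. Alternatives were TMM factors and biological CVs from edgeR 4.0.16, size factors from DESeq2 1.42.0, TPM, other filters and leaving out each kidney. The spread procedure was tested on simulated data. Python 3.11.15, NumPy 2.4.6, pandas 2.3.3, matplotlib 3.10.9 and R 4.3.3 were used. Some named genes are not reported here.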

Additional observations from a re-analysis of the deposited data

Results flagged for a closer look

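Of 107 values looked at, 9 had a kidney that lay far from the other 3 by the gap rule of Dixon, where chance flags about 1 in 20. That rate does not hold for genes named for their spread, for a kidney at the floor or after their values were seen. Among the flagged, these were Hist1h2af, Hipk1, Zfp787 and Kap. Control 1 stood apart in the intercalated cell share (0.0481% against 0.0286% to 0.0306%) and, on the low side, in the androgen-responsive share (0.373% against 0.518% to 0.544%) and in Hipk1 (614.1 CPM against 630.4 to 633.7). Control 2 stood apart in the lymphocyte share (0.00047% against at most 0.000113%), nearly all of it Cd3e, and in Hist1h2af (24.9 CPM against 4.22 to 7.22). Control 3 stood apart in the blood share (0.000537% against at most 0.000162%), which is Alas2 alone, in Zfp787 (0.0747 CPM against 11.2 to 11.96) and in Kap (51.73 CPM against 37.17 to 38.67). Control 4 stood apart in the share of the Y-linked genes (0.0265% against 0.0319% to 0.0324%).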

How the results depend on the processing

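No paired analysis was possible because the report uses 1 group and compares no groups. TMM factors and DESeq2 size factors moved no value by more than its spread between kidneys and no count by over 1.5 times. Per length, the 25 highest genes held 19.1% (and 16 of 25 were shared), the proximal tubule list 2.18%, the thick ascending limb 0.146%, ribosomal proteins 6.53%, the respiratory chain 3.17% and solute carriers 2.61%. Without the 25 highest genes the proximal tubule held 0.395%, the thick ascending limb 0.234%, ribosomal proteins 2.41% and the respiratory chain 1.16%. The median CV was 16.4% at a mean of at least 10 CPM, 34.7% without a filter and 30.4% as edgeR's biological CV, and the SD of log2(CPM + 1) had a median of 0.34. The median CV lay between 22.3% and 24.2% with 1 kidney left out. Genes with a CV over 50% numbered 141 at 10 CPM or more, 5155 without a filter and 3148 by edgeR. Genes at the floor in a kidney numbered 395 with a mean count of at least 50, and between 1129 and 1261 with 1 kidney left out. Of the other 38 list shares, 33 moved per length and 28 without the 25 highest genes. The mean share of androgen-responsive genes, 0.49%, was 0.80% per length and 0.129% without the 25 highest genes, and that of the thin limb and inner medulla list, 0.028%, was 0.0558% per length. The lymphocyte share, itself 0.000388% per length, went from 0.000182% to 8.57e-05% without control 2, the blood share from 0.00024% to 0.00014% without control 3 and the skeletal muscle share from 3.81e-05% to 1.23e-05% without control 4. Values under 10 CPM are the least certain, with a median CV of 55.8%, and zeros in this table do not show that a gene is silent.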
